A study of Homo sapiens with 17 samples.

Results

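The heat shock chaperones described here are 10 genes whose proteins fold, refold or hold other proteins in the cytosol and in mitochondria. They were chosen by name, as a family and not by a threshold on their values, though with earlier results of these data known, and are HSPA8, HSPA1A, HSP90AA1, HSP90AB1, HSPA4, HSPH1 and DNAJB1 for the cytosol and HSPA9, HSPD1 and HSPE1 for mitochondria. They are 10 of 15660 genes that had a count at 36 h and of 17023 at 72 h. Each gene was represented by the one of its transcripts whose counts, summed over the libraries of a time point, were highest.

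The libraries came from HEK293 cells, an established line of human embryonic kidney origin, electroporated with a ribonucleoprotein (RNP) of the guide sgIntron and either Cas9 or dCas9. Cas9 cuts both DNA strands at an intron of JAK2, and dCas9, which lacks nuclease activity, received the same guide and served as the control. Cells were lysed 36 or 72 h later, and the 17 libraries hold ribosome footprints (RNA protected by ribosomes) or mRNA depleted of ribosomal RNA. At 36 h there were 2 Cas9 and 2 dCas9 footprint libraries beside 3 Cas9 and 2 dCas9 mRNA libraries, and at 72 h each nuclease had 2 of each kind. According to the labels, nuclease and guide were each used at 300 pmol. Several electroporations were pooled into a plate to make a replicate, so p-values measure the spread between libraries of such plates. According to the paper, footprints and mRNA came from the same lysates, while the main fit took all libraries as independent. Synthetic guides, another aligner and another annotation were used at 36 h than at 72 h, where guides were transcribed in vitro, so time and these steps cannot be told apart.

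Chaperones of the HSP70 family, here HSPA8, HSPA1A and the mitochondrial HSPA9, bind exposed hydrophobic stretches of unfolded proteins in a cycle driven by ATP. J proteins such as DNAJB1 deliver substrates and start ATP hydrolysis, and the HSP110 proteins HSPA4 and HSPH1 exchange the nucleotide. HSP90 (HSP90AA1 and HSP90AB1) acts later, on kinases, steroid receptors and other clients that are nearly folded. HSPD1 and its lid HSPE1 form the folding chamber of the mitochondrial matrix. In many cell types heat and other causes of protein misfolding raise the transcription of some chaperone genes through HSF1. HSF1 binds heat shock elements, repeats of the unit GAA and its complement in alternating orientation.

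Heat shock elements were searched for in the RefSeq promoters (GRCh38.p14, the 250 bases before each annotated start). All 10 genes had an entry, 16 entries in all. An element of 2 units (GAANNTTC or TTCNNGAA, which are each their own reverse complement) was found in 6 genes, HSPA8, HSPA1A, HSP90AA1, HSP90AB1, HSPD1 and DNAJB1, and so in 6 of the 16 entries, beside 11.58% of the 35116 promoters in the table. An element of 3 units (GAA, TTC and GAA, or TTC, GAA and TTC, with any 2 bases between units, which are each other's reverse complement and contain the shorter element) was found in 4 of these genes, HSPA8, HSP90AA1, HSP90AB1 and HSPD1, and so in 4 of the 16 entries, beside 0.44% of all promoters. HSPA4, HSPH1, HSPA9 and HSPE1 had neither in these windows. The stretches of 60 bases below, read in the direction of the gene, show the elements nearest to the start, with every 2-unit element in capitals. They are shown because these 6 genes hold the sequence that HSF1 is known to bind, while the other 4 do not within these windows.
HSPA8: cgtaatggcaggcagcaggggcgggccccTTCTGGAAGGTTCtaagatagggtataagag
HSPA1A: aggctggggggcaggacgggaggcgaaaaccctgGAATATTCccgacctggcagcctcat
HSP90AA1: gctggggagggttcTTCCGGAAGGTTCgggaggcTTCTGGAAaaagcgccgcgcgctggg
HSP90AB1: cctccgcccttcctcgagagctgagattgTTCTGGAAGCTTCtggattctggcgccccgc
HSPD1: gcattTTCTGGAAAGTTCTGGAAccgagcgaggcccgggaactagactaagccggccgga
DNAJB1: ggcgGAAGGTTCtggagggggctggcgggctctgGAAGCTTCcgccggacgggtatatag
The stretches are chr11:123062161-123062220 for HSPA8, chr6:31815403-31815462 for HSPA1A, chr14:102087087-102087146 for HSP90AA1, chr6:44247802-44247861 for HSP90AB1, chr2:197500031-197500090 for HSPD1 and chr19:14518419-14518478 for DNAJB1. HSPA1A and HSP90AB1 are read from the plus strand and the others from the minus strand. Counted from the start, the last base before it being -1, the 2-unit element closest to the start began at -50 in HSPA8, -68 in HSP90AA1, -107 in HSP90AB1, -235 in HSPD1, -47 in DNAJB1 and -106 in HSPA1A. HSPD1 and HSPE1 are neighbors on opposite strands of chromosome 2 and overlap in the annotation, where the span of HSPD1 (chr2:197486584-197516737) contains its stretch and all of HSPE1 (chr2:197500140-197503449). The window searched for HSPE1 was chr2:197500129-197500378. The HSPD1 stretch with its elements lies before that window and before the HSPE1 gene start at 197500140, so it was not counted for HSPE1. Most of the window lies inside the HSPE1 gene span. A window of 250 bases before the gene start at 197500140 would contain the stretch, so the lack of an element in HSPE1 depends on the start used. A match in these letters is a description of the sequence and shows no binding.

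Several of these genes have copies elsewhere in the genome, which can touch their values below. HSPA1A (chr6:31815543-31817946, hg38, a single exon) and its neighbor HSPA1B (chr6:31827738-31830254) have coding regions of 1923 bases that differ at 4 positions and are 99.79% identical. Their counts were almost equal in every library, with a ratio of HSPA1A to HSPA1B between 0.994 and 1.01, so a value for HSPA1A cannot be assigned to that gene alone. Of the 28-base windows of the HSPA1A coding region, about the length of a footprint, 96.04% occurred elsewhere in the genome, and 8.49% occurred outside HSPA1B too.

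The other members ranged widely in this respect. Windows of 28 bases with an exact copy elsewhere made up 88.89% of the coding region in HSPE1, 72.58% in HSPD1, 62.89% in HSP90AA1, 57.93% in HSPA8, 54.87% in HSP90AB1, 28.56% in HSPA9 and 21.35% in DNAJB1. HSPA4 and HSPH1 had none. With 50-base windows, the length of the mRNA reads, the shares fell to 62.26% in HSPE1, 35.63% in HSPD1, 28.27% in HSP90AA1, 19.75% in HSPA8, 23.27% in HSP90AB1, 9.31% in HSPA9 and 5.87% in DNAJB1, while HSPA1A stayed at 93.92%. How reads with several positions were counted is not given in the sources used here, and its part in the results was not tested.

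**Figure D1:**
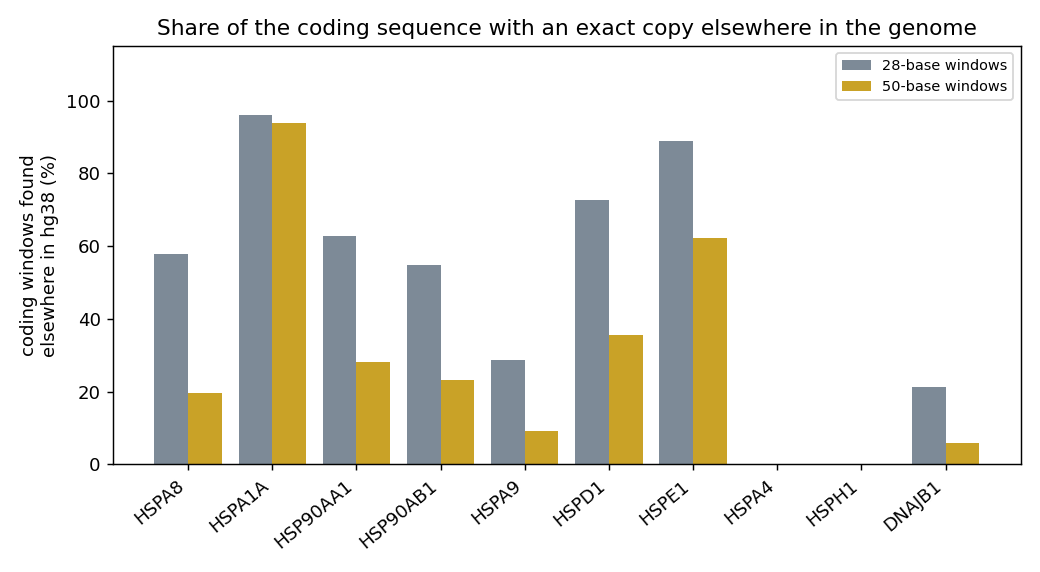
Share of windows of the coding region, in percent, that occur exactly outside the gene in hg38, for windows of 28 and of 50 bases. HSPA1A stands at 96.04% and 93.92%, HSPA4 and HSPH1 at 0.

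Total counts were 689636 to 4868580 in the footprint libraries and 25095505 to 33350952 in the mRNA libraries at 36 h, and 3183558 to 8864461 and 33040306 to 42825659 at 72 h. The 2 dCas9 footprint libraries at 36 h hold both extremes of their range, replicate e the lowest and replicate d the highest. JAK2, the gene with the cut intron, had 131 to 270 mRNA counts per library at 36 h and 231 to 472 at 72 h, and too few footprints (23 at most) to be tested. Of the markers of the line, LIN28B had at least 1274 and NEFM at least 89 mRNA counts in every library, but PAX2 had 0 to 12, and the blood marker PTPRC and the liver marker ALB had at most 22 and 8, while the fibroblast marker COL3A1 had 12 to 32. These are bulk libraries, in which fewer cells with a transcript and less of it per cell cannot be told apart.

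The chaperones together took 2.34% to 2.43% of all footprint counts at 36 h and 2.22% to 2.29% at 72 h. Of mRNA counts they took 1.40% to 1.52% at 36 h and 1.25% to 1.34% at 72 h. Their share was thus higher in every footprint library than in every mRNA library of the time point. HSPA1A alone took 1.36% to 1.56% of footprints at 36 h and 1.26% to 1.34% at 72 h. Of mRNA it took 0.53% to 0.58% and 0.49% to 0.60%, so HSPA1A made up most of the difference. HSPA1B, which it cannot be told from and which had almost equal counts, is not a member and was not added to these shares.

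Levels between genes were compared as counts per codon of the counted coding region, scaled to the sum over the tested genes in the way of TPM, a measure of the share of transcripts. In dCas9 mRNA at 36 h the order ran from HSPA1A (2702 ± 163, SD, n = 2) through HSP90AA1 (1151 ± 70.8), HSPA8 (871), HSP90AB1 (723), HSPD1 (656), HSPE1 (642), HSPA9 (333), HSPA4 (139) and DNAJB1 (116) to HSPH1 (61.1 ± 4.83). Only HSPD1 and HSPE1 overlapped with their neighbor in this order. HSPA1A ranked 64 among the 9011 genes compared, and HSPH1 ranked 2462.

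The same order held at the ends in footprints. In dCas9 footprints at 36 h HSPA1A stood at 6262 ± 480 (SD, n = 2; rank 17) and HSPH1 at 70.1 ± 9.72, and the neighbors HSP90AA1 and HSP90AB1 overlapped, as did HSPA8 with HSPE1 and HSPE1 with HSPD1. At 72 h HSPA1A stood at 5478 ± 11.8 in footprints and at 2732 ± 236 in mRNA (n = 2 each), again the highest of the 10, and HSPH1 was again the lowest in both. HSP90AA1 is not comparable per length between times, because its chosen transcript had 712 counted codons at 36 h and 835 at 72 h.

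**Figure D2:**
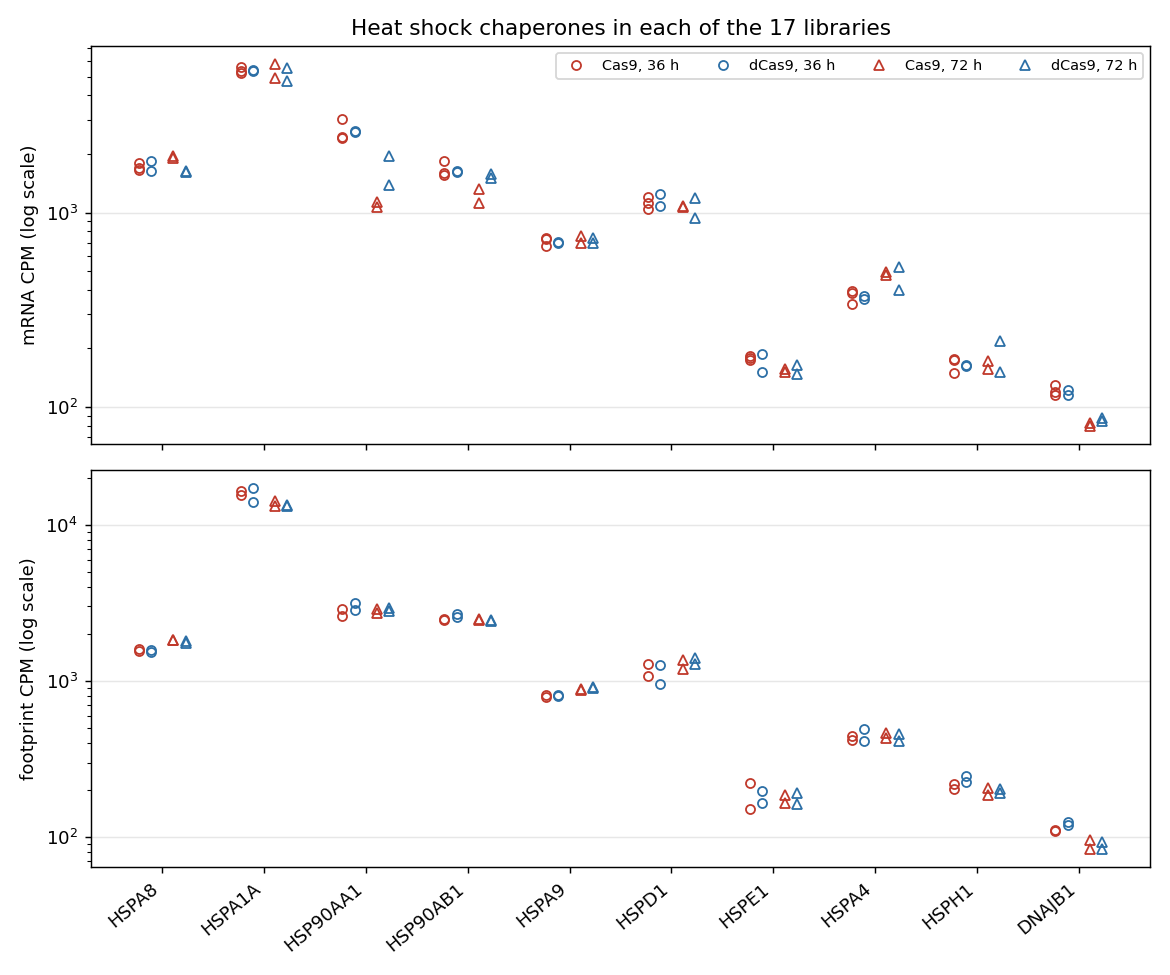
Depth-normalized counts (CPM, log scale) of each chaperone in the mRNA libraries (top) and the footprint libraries (bottom), each library being 1 point, with circles for 36 h, triangles for 72 h, red for Cas9 and blue for dCas9. HSPA1A is the highest in both panels, and the 2 nucleases separate most for HSP90AA1 and HSP90AB1 mRNA at 72 h.

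The design asked whether a cut by Cas9 changes ribosome footprints, mRNA or their ratio (translational efficiency), and each was fitted across all tested genes at each time point (edgeR's quasi-likelihood test, Benjamini-Hochberg adjustment, called at an adjusted p below 0.1). All 10 chaperones were tested at both times. Fitted changes are given on the log2 scale as Cas9 against dCas9, and libraries as CPM normalized by TMM over the tested genes of the time point.

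At 36 h none of the 10 chaperones was called in footprints, in mRNA or in translational efficiency, and none had an unadjusted p below 0.05. The share called among all 9016 tested genes was also 0.0% in footprints, 0.0% in mRNA and 0.0% in translational efficiency. At an unadjusted p below 0.05 there were 862, 26 and 568 genes, and DESeq2 called 46, 0 and 1 genes, none of them a chaperone. The median change of the 10 was -0.04 in footprints, 0.03 in mRNA and -0.08 in translational efficiency, beside 0.015, -0.00 and 0.01 over all tested genes.

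The HSP90 pair illustrates how close the libraries were. HSP90AB1, the constitutive form, had footprint CPM of 2481 and 2446 with Cas9 (replicates a and c) and 2670 and 2566 with dCas9 (d and e). The nucleases did not overlap, but the fitted change of -0.09 was smaller than its error (SE 0.10, adjusted p = 0.81). HSP90AA1, the inducible form, had 2596 and 2908 with Cas9 and 3147 and 2853 with dCas9, which overlap. Its mRNA was 2430, 2453 and 3017 with Cas9 and 2609 and 2627 with dCas9, so that replicate c alone lay above the controls.

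HSPA8, the constitutive HSP70, had footprint CPM of 1602 and 1544 with Cas9 and 1588 and 1542 with dCas9 at 36 h. These 4 values lie within a narrow band in which the nucleases overlap, and the fitted change was 0.01 (SE 0.10). HSPA1A, the stress-inducible HSP70, had 16382 and 15573 with Cas9 and 14023 and 17320 with dCas9. Here the dCas9 libraries enclosed both Cas9 libraries, and the change was 0.03 (SE 0.10, adjusted p = 0.95). Its mRNA was as close, at 5596, 5196 and 5365 with Cas9 and 5336 and 5384 with dCas9.

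The cofactors of HSP70 had the largest fitted footprint changes of the 10 at 36 h, neither of them called. DNAJB1, a J protein, had footprint CPM of 110 and 109 with Cas9 and 120 and 124 with dCas9 from 77 to 564 counts per library. HSPH1, an HSP110, had 218 and 202 with Cas9 and 246 and 224 with dCas9. In both genes the nucleases did not overlap, and the changes were -0.15 (SE 0.17, adjusted p = 0.81) in DNAJB1 and -0.18 (SE 0.15, adjusted p = 0.73) in HSPH1. HSPA4, the other HSP110, had 420 and 442 against 489 and 414, which overlap.

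The mitochondrial members overlapped between the nucleases at 36 h. HSPA9, the HSP70 of the matrix, had footprint CPM of 786 and 815 with Cas9 and 814 and 797 with dCas9. HSPD1 had 1076 and 1279 with Cas9 and 1264 and 958 with dCas9. Its lid HSPE1, the shortest of the 10 with 82 counted codons, had 152 and 222 with Cas9 and 196 and 164 with dCas9. In HSPD1 and HSPE1 the 2 libraries of a nuclease differed by more than the nucleases did, and the fitted changes were 0.075 (SE 0.14) and 0.05 (SE 0.185).

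In mRNA at 36 h the fitted changes of the 10 ran from -0.05 in HSPD1 (SE 0.12) to 0.08 in HSPE1 (SE 0.15). HSPA8 mRNA was 1662, 1688 and 1807 with Cas9 (replicates a, b and c) and 1643 and 1851 with dCas9. HSP90AB1 mRNA was 1588, 1569 and 1841 with Cas9 and 1640 and 1612 with dCas9, so that replicate c was again the highest. HSPD1 mRNA was 1042, 1114 and 1207 against 1084 and 1241. HSPA9, HSPE1, HSPA4, HSPH1 and DNAJB1 overlapped between the nucleases too, and no chaperone was higher or lower in all 6 pairs of libraries.

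At 72 h the chaperone footprints were closer still. None was called, as was 0.0% of the 10896 tested genes, and none had an unadjusted p below 0.05, against 397 of all tested genes. DESeq2 called 0 genes here. The changes ran from -0.07 in HSPD1 (SE 0.11) to 0.04 in HSPA1A (SE 0.092), with a median of 0.00 for the 10 and for all tested genes. HSPA9 footprints were 872 and 891 with Cas9 and 920 and 908 with dCas9, without overlap, and with a change of -0.05 (SE 0.083). HSPA1A had 13276 and 14264 against 13303 and 13504, and HSPD1 had 1365 and 1193 against 1395 and 1289, both overlapping. The values of HSPE1, HSPA4, HSPH1 and DNAJB1 overlapped as well, at 83.4 to 95.1 in DNAJB1, 162 to 191 in HSPE1, 184 to 207 in HSPH1 and 413 to 462 in HSPA4.

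**Figure D3:**
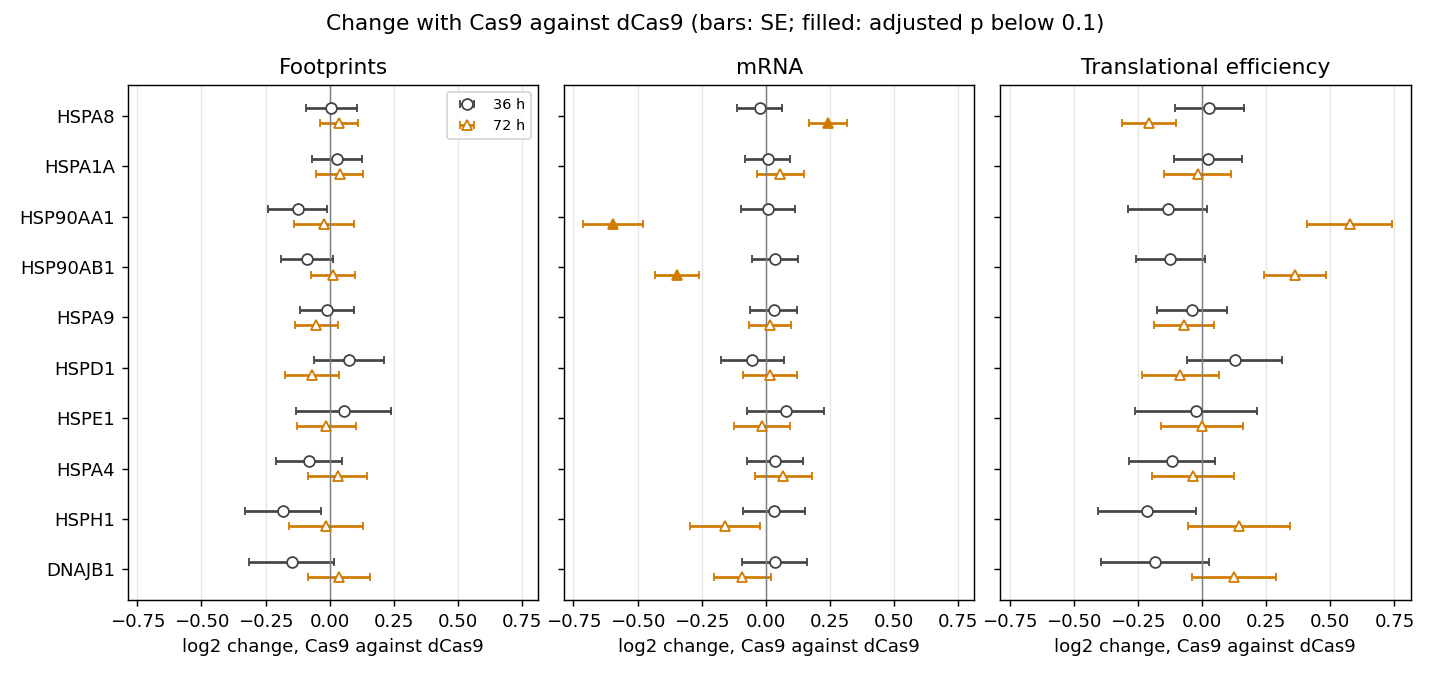
Log2 change with Cas9 against dCas9 (x axis) of each chaperone in footprints, mRNA and translational efficiency, with circles for 36 h and triangles for 72 h. Bars show the SE and filled symbols an adjusted p below 0.1, which only HSP90AA1 (-0.60), HSP90AB1 (-0.35) and HSPA8 (0.24) reach, in mRNA at 72 h.

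mRNA of both cytosolic HSP90 genes fell at 72 h with Cas9, and mRNA of HSPA8 rose. They were 3 of the 10 chaperones, beside 5.21% of all tested genes called lower (568) and 0.422% called higher (46). HSP90AA1 (chr14:102080742-102139699) had mRNA CPM of 1072 and 1137 with Cas9 (replicates a and b) and 1384 and 1957 with dCas9 (a and b), so both Cas9 libraries were below both controls. The means were 1104 ± 45.7 and 1670 ± 405 (SD, n = 2 each), and the fitted change was -0.60 (SE 0.12, adjusted p = 0.0089), or 0.661-fold. The dCas9 libraries differed from each other, and without dCas9 replicate b the change was -0.38 and without replicate a -0.81. It was called under all 19 alternatives.

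HSP90AB1 (chr6:44246166-44253888) had mRNA CPM of 1115 and 1315 with Cas9 and 1504 and 1585 with dCas9. The nucleases again did not overlap, and the change was -0.35 (SE 0.086, adjusted p = 0.033), or 0.787-fold. It lost its call without Cas9 mRNA replicate a (-0.25, adjusted p = 0.77) and when mRNA was fitted without the footprint libraries (-0.34, adjusted p = 0.19).

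HSPA8 (chr11:123057489-123063230) went the other way. Its mRNA CPM was 1963 and 1905 with Cas9 and 1625 and 1641 with dCas9, a change of 0.24 (SE 0.074, adjusted p = 0.090), or 1.18-fold. All 4 pairs of libraries were higher with Cas9, but the call was close to the threshold and was lost under 11 of 19 alternatives, DESeq2 among them (0.23, adjusted p = 0.12), with values between 0.20 and 0.25 in all of them.

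**Figure D4:**
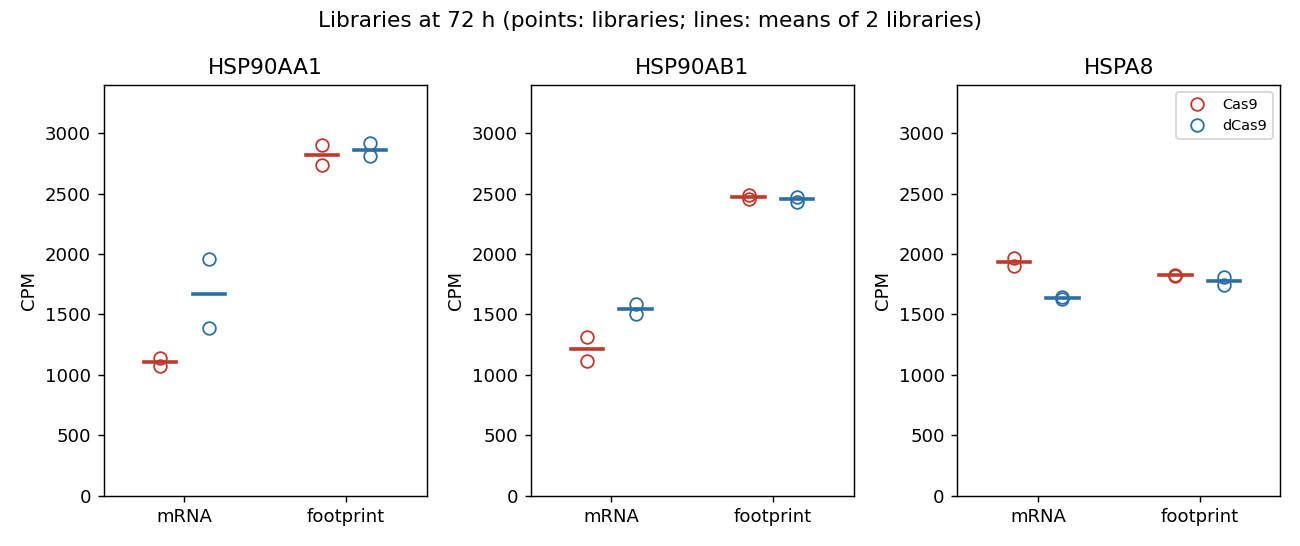
CPM of HSP90AA1, HSP90AB1 and HSPA8 in the mRNA and footprint libraries at 72 h, with points for libraries and lines for means of 2 libraries, Cas9 in red and dCas9 in blue. In mRNA the nucleases separate in each gene, while their footprint means lie close together, at 2819 and 2862 for HSP90AA1, 2476 and 2452 for HSP90AB1 and 1823 and 1778 for HSPA8.

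Footprints of these 3 genes, from libraries with other replicate letters than the mRNA, were not called. HSP90AA1 footprints at 72 h were 2900 and 2738 with Cas9 (replicates e and f) and 2916 and 2808 with dCas9 (e and f), a change of -0.02 (SE 0.12). HSP90AB1 had 2459 and 2493 with Cas9 and 2471 and 2432 with dCas9, a change of 0.01 (SE 0.086). HSPA8 had 1830 and 1816 against 1809 and 1747, a change of 0.04 (SE 0.075).

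Whether footprints and mRNA changed differently is what translational efficiency tests. HSP90AA1 had a change of 0.58 (SE 0.165, adjusted p = 0.18), HSP90AB1 of 0.36 (SE 0.12, adjusted p = 0.27) and HSPA8 of -0.21 (SE 0.105, adjusted p = 0.48). In each the direction was the same in all 16 combinations of library pairs, which share libraries and are not independent. None of the 3 passed the threshold, beside 0.716% of all tested genes. HSP90AA1 was called by DESeq2 (0.59, adjusted p = 0.053) and under 8 other alternatives, and HSP90AB1 under 4. Whether the HSP90 genes passed thus depended on the processing. The other 7 lay between -0.09 in HSPD1 (SE 0.15) and 0.14 in HSPH1 (SE 0.20).

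The other 7 chaperones were not called in mRNA at 72 h. HSPA1A had mRNA CPM of 5808 and 4895 with Cas9 and 5560 and 4738 with dCas9, where the spread within each nuclease exceeded the difference between them, 0.06 (SE 0.092). HSPH1 had 158 and 173 with Cas9 and 151 and 218 with dCas9, a change of -0.16 (SE 0.14) that was 0.08 without dCas9 replicate b. DNAJB1 had 80.1 and 82.3 with Cas9 and 87.8 and 85.1 with dCas9, without overlap, and with a change of -0.09 (SE 0.11, adjusted p = 0.71).

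The mitochondrial genes stayed within their spread. HSPA9 mRNA was 700 and 758 with Cas9 and 700 and 739 with dCas9. HSPD1 was 1082 and 1069 with Cas9 and 933 and 1194 with dCas9. HSPE1 was 151 and 157 with Cas9 and 147 and 164 with dCas9. For HSPD1 and HSPE1 the dCas9 libraries enclosed both Cas9 libraries, and the changes of the 3 genes were 0.02 (SE 0.082), 0.02 (SE 0.11) and -0.01 (SE 0.11).

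dCas9 mRNA replicate b at 72 h was the highest of its 4 libraries in HSP90AA1, HSP90AB1, HSPD1, HSPE1, HSPA4 and HSPH1 and the lowest in HSPA1A. Between the 2 dCas9 mRNA libraries the 10 chaperones differed by a median of 0.19 on the log2 scale, from -0.53 in HSPH1 to 0.23 in HSPA1A (a minus b), beside 0.18 over all tested genes and 0.07 for the chaperones between the 2 Cas9 mRNA libraries. The coding regions also differ in base composition, with 63.1% G and C in HSPA1A, 55.3% in DNAJB1 and 40.9% to 47.6% in the other 8 at 36 h. Removing the dependence of the changes on this share left HSP90AA1, HSP90AB1 and HSPA8 called and added HSPH1 (-0.33, adjusted p = 0.0090). Calls over all 10896 tested genes rose from 614 to 1963 in that setting.

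Other genes of the same system were taken from lists. Of 35 listed cytosolic co-chaperones and heat shock factors, 29 were tested at 36 h, with none called in footprints, mRNA or translational efficiency. Of the 32 tested at 72 h, none was called in footprints or translational efficiency. In mRNA 4 fell, beside 5.21% of all tested genes called lower, with a list median of -0.00 beside 0.02 over all tested genes. FKBP5, an immunophilin that works with HSP90, had the strongest decrease, -0.86 (SE 0.155, adjusted p = 0.0054), and the small heat shock protein HSPB1 fell by 0.67 (SE 0.19, adjusted p = 0.065) and the HSP70 cofactor BAG3 by 0.43 (SE 0.12, adjusted p = 0.071). Each was lower in all 4 pairs of libraries, and the other called gene, UNC45A, which assists myosin folding with HSP90, fell by 0.33 (adjusted p = 0.096). FKBP5 was called under all 19 alternatives, while HSPB1 lost its call under 6 and BAG3 under 7.

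The factors HSF1 and HSF2 were not called. HSF1 mRNA at 72 h was 68.2 and 60.7 with Cas9 and 82.2 and 60.1 with dCas9, with a change of -0.14 (SE 0.14). HSF2 mRNA was 86.2 and 85.9 against 65.4 and 81.8, higher in all 4 pairs, with a change of 0.22 (SE 0.12, adjusted p = 0.36), and its footprints were 65.6 and 62.1 against 75.2 and 73.5, lower in all 4 pairs (-0.22, SE 0.14). HSPB1 is a low gene in this line, with 152 to 296 mRNA counts per library at 72 h and 172 to 398 at 36 h, where its change was 0.53 (SE 0.36). HSPA1B, the near-identical copy of HSPA1A, had values like it, 0.05 in mRNA (SE 0.092) and 0.04 in footprints (SE 0.092) at 72 h.

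The CCT chaperonin, the ring that folds actin and tubulin, had 8 of 8 subunits tested. At 72 h 3 of them rose in mRNA, CCT5 by 0.28 (SE 0.078, adjusted p = 0.061), CCT2 by 0.30 (SE 0.09, adjusted p = 0.086) and TCP1 by 0.31 (SE 0.095, adjusted p = 0.094), each in all 4 pairs, beside 0.422% of all tested genes called higher. The list median was 0.22 beside 0.02 over all tested genes. All 8 had fitted values above 0 in mRNA, as did 52.8% of all tested genes. All 8 were below 0 in translational efficiency, where 50.1% of all tested genes were above 0, and the median was -0.23 with none called. Translational efficiency holds the mRNA change with its sign turned, so these values are not separate from the mRNA rise. CCT5 lost its call under 6 of 19 alternatives, CCT2 and TCP1 under 10 each, and with base composition removed CCT2 was 0.175 and TCP1 0.15. In footprints none of the 8 was called at either time.

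The mitochondrial list of 17 partner chaperones and proteases had 16 genes tested at 36 h and all 17 at 72 h, and none was called in any comparison of Cas9 with dCas9. Its median mRNA change at 72 h was 0.08. Of 15 listed chaperones of the endoplasmic reticulum, 13 were tested at 36 h and 15 at 72 h, with none called at 36 h. At 72 h HSPA5, the HSP70 of that compartment, fell in mRNA by 0.91 (SE 0.14, adjusted p = 0.0013) and rose in translational efficiency by 0.98 (SE 0.19, adjusted p = 0.041). It was the single gene of the list called in either, its mRNA call held under all 19 alternatives, and its translational efficiency call was lost under 4 of 18. Over all tested genes 5.21% were called lower in mRNA and 0.716% were called in translational efficiency. Translational efficiency is the footprint change minus the mRNA change, so both HSPA5 calls hold the same mRNA fall. No gene of the list was called in footprints at 72 h.

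Footprints against mRNA within dCas9 cells show how the chaperones stood in the control. At 36 h 4 of the 10 were called higher in footprints and none lower, beside 23.6% of all tested genes higher and 24.6% lower, and the median was 0.20 beside -0.01. At 72 h 5 were higher and none lower, beside 32.7% and 37.8%, with a median of 0.26 beside -0.06. Under the alternatives some were called lower, HSPA8 at 36 h with base composition removed (-0.20) and HSPA4 at 72 h under 3 of 18, among them without dCas9 mRNA replicate a (-0.20) and with base composition removed (-0.16). HSPA1A and HSP90AB1 were called at both times. Base composition was removed within each library type, so its link to the difference between footprints and mRNA stayed in these ratios and was not tested.

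HSPA1A had the largest ratio of the 10. Footprint CPM divided by mRNA CPM of the same replicate letter was 2.63 (d) and 3.22 (e) with dCas9 at 36 h, and 2.93 (a) and 2.90 (c) with Cas9. The fitted log2 ratio in dCas9 cells was 1.55 (SE 0.10, adjusted p = 2.9e-08) at 36 h and 1.38 (SE 0.093, adjusted p = 3.0e-09) at 72 h. It ranged from 1.39 to 1.69 and from 1.27 to 1.57 under the 18 alternatives at each time, with no call lost. HSPA1B, which cannot be told from it, had 1.54 and 1.39.

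HSP90AB1 had ratios of 1.63 and 1.59 with dCas9 and 1.56 and 1.33 with Cas9 at 36 h, and fitted values of 0.69 (SE 0.10, adjusted p = 8.2e-05) at 36 h and 0.67 (SE 0.086, adjusted p = 4.9e-06) at 72 h. HSP90AA1 had 0.20 (SE 0.12, adjusted p = 0.18) at 36 h and 0.78 (SE 0.12, adjusted p = 2.6e-05) at 72 h. Its mRNA in dCas9 cells was 2618 ± 12.8 at 36 h and 1670 ± 405 at 72 h, and its footprints were 3000 ± 208 and 2862 ± 75.9 (SD, n = 2 each), so mean mRNA differed more between the times than footprints did. That difference was not tested, since the times were processed differently and the gene was counted on transcripts of 712 codons at 36 h and 835 at 72 h.

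The HSP110 pair was called at 36 h and not at 72 h, and the difference between the times was not tested. HSPH1 had a ratio of 0.54 (SE 0.14, adjusted p = 0.0070) at 36 h and 0.10 (SE 0.14, adjusted p = 0.56) at 72 h, where it was 0.39 and called without dCas9 mRNA replicate b. HSPA4 had 0.33 (SE 0.12, adjusted p = 0.048) at 36 h and -0.09 (SE 0.11) at 72 h, and its call at 36 h was lost without dCas9 footprint replicate d (0.18), without dCas9 mRNA replicate d (0.30) or e (0.35), and when the base composition was removed together with a replicate block (0.25). DNAJB1 had 0.03 (SE 0.15) and 0.02 (SE 0.11), neither called.

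HSPA8 had -0.16 (SE 0.098, adjusted p = 0.22) at 36 h and 0.12 (SE 0.075, adjusted p = 0.16) at 72 h, where it was called higher under 6 of 18 alternatives. Of the mitochondrial genes, HSPA9 had 0.20 (SE 0.10, adjusted p = 0.13) at 36 h and 0.35 (SE 0.082, adjusted p = 0.0016) at 72 h. HSPD1 had -0.05 (SE 0.14) at 36 h and 0.33 (SE 0.11, adjusted p = 0.011) at 72 h, where the call was lost without dCas9 footprint replicate e (0.28) and the value was 0.52 without dCas9 mRNA replicate b. HSPE1 was not called at either time, at 0.12 (SE 0.17) and 0.18 (SE 0.11), and at 72 h it was called higher under 5 of 18 alternatives. Footprints are shorter than the mRNA reads, and the share of windows with a copy elsewhere differed by length in all members but HSPA4 and HSPH1, where it was 0 at both lengths.

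Among the listed genes the ratio went both ways. Of the cytosolic co-chaperones and heat shock factors 11 of 29 tested were higher in footprints and 9 lower at 36 h, and 12 and 11 of 32 at 72 h. HSPB1 had 2.04 (SE 0.44, adjusted p = 0.0021) at 36 h and 1.59 (SE 0.19, adjusted p = 2.3e-06) at 72 h. Its dCas9 footprint counts at 36 h were low, 89 in replicate d and 29 in e. The 36 h value was 1.43 without replicate e and 2.74 without replicate d. HSF1 had -0.19 (SE 0.23) at 36 h, with -0.50 and a call without dCas9 footprint replicate e and 0.26 without replicate d. At 72 h HSF1 had -0.53 (SE 0.15, adjusted p = 0.0061), which was -0.21 and not called without dCas9 mRNA replicate a. HSF2 was not called. Of the mitochondrial list 1 of 16 was higher and 3 lower at 36 h, and 3 and 4 of 17 at 72 h. Of the 8 CCT subunits 2 were higher and 1 lower at 36 h, and 5 and 1 at 72 h. Of the endoplasmic reticulum list 4 of 13 were higher and 1 lower at 36 h, and 5 and 2 of 15 at 72 h. Over all tested genes the shares were 23.6% higher and 24.6% lower at 36 h, and 32.7% and 37.8% at 72 h.

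**Figure D5:**
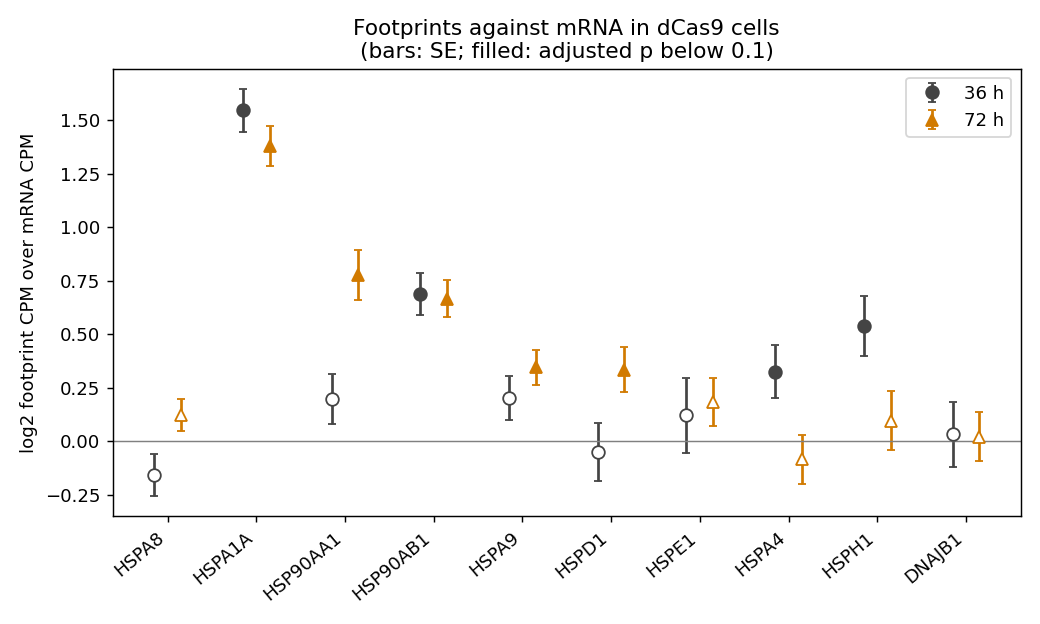
Log2 of footprint CPM over mRNA CPM in dCas9 cells for each chaperone (y axis), with circles for 36 h, triangles for 72 h, bars for the SE and filled symbols for an adjusted p below 0.1. HSPA1A stands at 1.55 and 1.38, HSP90AB1 at 0.69 and 0.67, and no chaperone is called below 0 in this fit.

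Across the 17 libraries, with log2 CPM centered within each time point and library type, the chaperones did not move as 1 group. The 45 pairs of members had a median Pearson correlation of 0.16, and 30 pairs were above 0. HSP90AA1 and HSP90AB1 had the highest (0.86), followed by HSPD1 with HSPA4 (0.79) and HSPA4 with HSPH1 (0.78). HSPA1A had the lowest, with HSPH1 (-0.72), HSPA4 (-0.71) and HSPD1 (-0.69). Values were not centered within each nuclease, so differences between Cas9 and dCas9 enter the correlations, among them the lower mRNA of both HSP90 genes at 72 h. Genes in the same library also share its depth and base composition, so these are descriptions.

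The genes most like the mean of the 10 over the 17 libraries, among 8956 compared, were MCM4 (r = 0.89), CLSPN (0.86), CAMSAP2 (0.86), PDCD4 (0.85) and HDAC2 (0.85). The mean of the chaperones spanned from -0.06 to 0.13 on the log2 scale over all libraries, with the highest value in dCas9 mRNA replicate b at 72 h.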

How the data were processed

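Ribosome footprints and mRNA of HEK293 cells were sequenced by the authors, whose methods name hisat2 and GENCODE 22 for 36 h, tophat and GENCODE 25 for 72 h, and fp-count for the tables. The submitters' processing notes name HISAT2 2.1.0. The deposited values are raw read counts for each transcript, with the counted coding length in codons. Where a title says rcas9 (Cas9 footprints, 72 h), the treatment label decided the group. The labels name 300 pmol of Cas9 and guide, and the methods also give a smaller amount.

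Transcripts were matched to GENCODE release 44 on hg38, and 9016 genes at 36 h and 10896 at 72 h were tested, each averaging 20 counts or more in footprints and in mRNA. Each time point was fitted in edgeR 4.0.16 (R 4.3.3) with a mean for each nuclease and library type, TMM, the quasi-likelihood test and a false discovery rate of 0.1. Standard errors were taken from the log2 change and the F statistic, and log2 CPM of pairs of libraries used a prior count of 2. Scripts were tested on simulated data. The members and gene lists were chosen with earlier results of these data known. Named were the 10 members, up to 3 genes per list and comparison past the threshold by smallest adjusted p, HSPA1B, HSPB1, HSF1, HSF2, JAK2 and the 5 genes most like the members, and UNC45A was named after its value was seen. When alternatives were compared, a change below its SE was counted as having no direction, unless an alternative of the other sign was called. Overlap between libraries is a description.

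Alternatives were DESeq2 1.42.0, its size factors in edgeR, no count minimum, filterByExpr, each library type alone, the other time point's transcripts, the longest counted transcript, the replicate block, removal of the dependence on base composition, both together, and leaving out each library. Base composition was removed as each library's deviation from the mean of its library type. Differences tied to it were thus kept between footprints and mRNA and taken out between the nucleases.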

Additional observations from a re-analysis of the deposited data

How the results depend on the processing

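Of the single-gene changes recomputed under the alternatives, 2040 kept their direction, where they had one, and their side of the threshold, 62 lost a call, 44 gained one and 2 turned. HSPD1 mRNA at 72 h, 0.02 (SE 0.11) in the main fit, was -0.13 and called with the replicate block and base composition removed. HSPH1 mRNA at 72 h lay between -0.386 and 0.076 with 1 library left out, the latter without dCas9 mRNA replicate b. The cause was not tested. The number of chaperones called in mRNA at 72 h, 3, became 1 with each library type alone and 6 with the replicate block and base composition removed, and lay between 1 (without Cas9 mRNA replicate a, which leaves HSP90AA1) and 4 with 1 library left out. The number called in translational efficiency at 72 h, 0, became 1 with DESeq2, with its size factors in edgeR, and with no count minimum, 2 with base composition removed and 3 with the replicate block and base composition removed, and lay between 0 and 2 with 1 library left out (2 without Cas9 mRNA replicate b or dCas9 mRNA replicate b, 1 without dCas9 mRNA replicate a). The median footprint change of the chaperones at 72 h lay between -0.046 (without dCas9 footprint replicate f) and 0.033 with 1 library left out.

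The paper describes footprints and mRNA as paired, but the counts did not show that replicate letters pair the libraries. Deviations of libraries with the same letter correlated at 0.01 to 0.07 between footprints and mRNA at 36 h. Between the nucleases at 72 h they correlated at -0.14 for mRNA and 0.01 for footprints. In a group of 2 libraries the deviations mirror each other, so d and e give a single value and the check is weak. With the replicate block 3 chaperones were called in mRNA, 0 in footprints and 0 in translational efficiency at 72 h, 0 in translational efficiency at 36 h, and 5 and 6 in footprints against mRNA at 36 and 72 h. No paired analysis was possible for footprints or mRNA with Cas9 against dCas9 at 36 h because no letter occurs with both nucleases. With the mRNA letters crossed, an alternative chosen after the data were seen, 2 chaperones were called in mRNA and 1 in translational efficiency. Over all genes, the mRNA calls at 72 h (614) ranged from 110 without Cas9 mRNA replicate a to 2473 without dCas9 mRNA replicate b, with 293 for mRNA alone, 829 by DESeq2, 1135 with the letters crossed, 1963 with base composition removed and 2102 with the block as well. Those in translational efficiency (78) ranged from 1 without a footprint library (dCas9 f, Cas9 e or Cas9 f) to 1065 without dCas9 mRNA replicate b, with 170 with DESeq2 size factors, 221 by DESeq2, 249 with the letters crossed, 260 with no count minimum, 583 with base composition removed and 744 with the block as well. At 36 h footprint calls (0) became 918 without dCas9 footprint replicate d, 323 without Cas9 footprint replicate c, 46 by DESeq2 and 21 with no count minimum, and translational efficiency calls (0) became 474 without dCas9 footprint replicate d, none of them a chaperone. With 1 library left out of a group of 2, the lone library is assumed to vary like the other groups. Footprint depth limits the members with few counts, DNAJB1 (77 to 564 at 36 h) and HSPE1 (102 to 924).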
